A study of Mus musculus with 3 samples.

Results

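Tmem119 Mmp13 Cadm1 macrophages are a small class of heart macrophages defined here by transcripts of 3 genes in single-cell RNA sequencing of sorted mouse heart macrophages. A cell belonged to the class if its barcode held at least 1000 unique molecular identifiers (UMIs, each a counted transcript molecule), 200 or more genes, and no more than 10% of UMIs from mitochondrially encoded genes. The complement genes C1qa, C1qb and C1qc had to make up at least 0.3% of its UMIs. It also needed at least 2 UMIs of Cadm1, Mmp13 and Tmem119 summed, with at least 2 of the 3 genes detected, and no UMI of Ccr2, Timd4 or Lyve1. These conditions held for 223 of the 8012 cells that passed the C1q condition, and 10171 barcodes passed the quality conditions in all 3 libraries. They were met by 42 of 2293 C1q-gated cells in the CD library, 43 of 2002 in the HFD library and 138 of 3717 in the WD library. Below, the 223 are called gated cells, and the remaining C1q-gated cells of the same library are called other C1q-gated cells.

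The libraries came from the hearts of mice of wild type genotype, 32 to 34 weeks old, with 1 library for each of 3 diets: CD, a control diet, HFD, a high fat diet, and WD, a Western diet. Heart cells freed with collagenase were sorted for surface CD45, F4/80 and CD11b, so every cell had passed that gate, and doublets and dead cells were excluded in the sort, as stated by the submitters. Neither what the diets contained and how long they lasted nor how many mice a library held is stated in the labels. A single library for each diet allows no test between them, and intervals on single libraries cover counting error only.

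Macrophages of the adult heart include a long-lived resident population marked by Timd4, Lyve1 and Folr2, a population replenished by Ccr2-positive blood monocytes, and cells with neither set of markers that carry much MHC class II. Tmem119 encodes a membrane protein best known as a marker of microglia, the macrophages of the brain. Mmp13 encodes a secreted collagenase that cuts fibrillar collagen, and Cadm1 encodes an immunoglobulin-family cell adhesion molecule that is also a marker of cross-presenting (type 1) dendritic cells. C1qa, C1qb and C1qc encode the recognition subunits of complement, which tissue macrophages make in quantity.

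In build GRCm38, Cadm1 spans chr9:47530173-47857637 on the plus strand, with 317.025 kb of its 327.465 kb in introns. Mmp13 lies on the same chromosome at chr9:7272514-7283331, also on the plus strand, and spans 10.818 kb. Tmem119 spans 6.788 kb on the minus strand at chr5:113793729-113800516. The RefSeq promoter table (build GRCm38.p6, 250 bases before to 50 bases after the gene start) was searched for 8 genes and held 4 of them, among them Mmp13 but not Cadm1 or Tmem119. The window of Mmp13 (chr9:7272264-7272563, plus strand) is shown as that of a gene of the gate. The window of Cd207 (chr6:83677808-83678107, minus strand) is shown because Cd207 had a large fold in the results, and it was chosen after its values were seen. Capitals mark matches to the AP-1 motif TGANTCA.

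Mmp13: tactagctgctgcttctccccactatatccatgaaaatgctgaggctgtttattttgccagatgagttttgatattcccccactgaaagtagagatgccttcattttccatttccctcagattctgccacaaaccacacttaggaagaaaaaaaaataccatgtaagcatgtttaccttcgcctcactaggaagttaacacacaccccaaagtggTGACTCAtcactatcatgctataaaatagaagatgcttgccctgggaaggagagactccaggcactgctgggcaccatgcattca
Cd207: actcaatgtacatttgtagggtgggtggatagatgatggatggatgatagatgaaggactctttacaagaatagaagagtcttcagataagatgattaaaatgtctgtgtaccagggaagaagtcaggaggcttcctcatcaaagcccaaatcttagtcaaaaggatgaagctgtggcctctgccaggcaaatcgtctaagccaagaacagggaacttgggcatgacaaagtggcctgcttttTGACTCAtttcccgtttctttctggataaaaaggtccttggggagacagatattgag

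Each window held 1 AP-1 match, 35 bases before the start of Mmp13 and 7 bases before that of Cd207. Of 32851 promoters of the same length, 7.81% held at least 1 match to TGANTCA on either strand. The PU.1 core GAGGAA, found in 28.3% of promoters, and the SMAD motif CAGAC, found in 49.6%, were matched in the Cd207 window and not in the Mmp13 window. A match is a description of letters and not evidence of binding.

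The 3 genes that defined the class were sparse, and most gated cells lay near the threshold in CD and HFD. On the CPM scale (UMIs of a gene scaled to a library sum of 1e6), Cadm1 was at 298 in CD, 350 in HFD and 299 in WD gated cells. Mmp13 was at 232, 264 and 329 CPM, and Tmem119 at 151, 285 and 59.6 CPM, in the same order. In the other C1q-gated cells Cadm1 was at 26.9, 24.8 and 71.2 CPM, Mmp13 at 16.5, 25.5 and 37.5 CPM, and Tmem119 at 10.5, 19.2 and 5.25 CPM. These levels follow from the selection and are given without a test. The gated cells with exactly 2 UMIs of the 3 genes numbered 14 of 42 in CD, 17 of 43 in HFD and 23 of 138 in WD, and 17, 17 and 21 cells had 3. Just outside the threshold, 97 CD, 134 HFD and 112 WD cells met the C1q and negative conditions with a single UMI, and 36, 32 and 145 cells had 2 or more UMIs from only 1 of the genes. The pair Cadm1 and Mmp13 without Tmem119 made up 21 CD, 14 HFD and 79 WD gated cells, and Cadm1 and Tmem119 without Mmp13 made up 14, 17 and 38. All 3 genes were detected together in 4 CD, 7 HFD and 20 WD cells.

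The 3 genes were compared with each other among cells of the negative gate by choosing cells on 2 of them and reading the other, which the choice did not use. Cadm1 in cells with both Mmp13 and Tmem119 was 4.37-fold (95% exact interval 2.04 to 8.34) its level in the remaining cells in HFD and 1.81-fold (1.43 to 2.25) in WD, and in CD 1.94-fold (0.621 to 4.65). Mmp13 in cells with both Cadm1 and Tmem119 was 1.53-fold (1.22 to 1.89) in WD, with intervals that include 1 in CD (0.954-fold, 0.303 to 2.30) and HFD (1.86-fold, 0.829 to 3.66). Tmem119 in cells with both Cadm1 and Mmp13 was 1.77-fold (1.18 to 2.62) in WD, 2.21-fold (0.865 to 4.72) in HFD and 1.06-fold (0.280 to 2.83) in CD. In CD, a cell chosen by 2 of the genes therefore did not show more of the other beyond counting error. All 3 ratios were above 1 in HFD and WD. Counting intervals over cells of 1 library do not measure the spread between animals.

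Detection of these genes was also read in barcodes with little RNA and in cells with little C1q. In near-empty barcodes (10 to 100 UMIs each, summed), which hold free RNA, Cadm1 was at 8.16 CPM in CD and 8.26 in HFD, Mmp13 at 5.44 and 11.8 CPM, and Tmem119 at 5.78 and 3.76 CPM. All 3 were lower there than in the gated and in the other C1q-gated cells. The WD matrix held no barcode this small, so free RNA was not measured in WD. After each cell was thinned to 1000 UMIs, Cadm1 was found in 2.44% (CD), 2.60% (HFD) and 6.15% (WD) of other C1q-gated cells, against 10.2%, 6.89% and 37.7% before thinning. Barcodes below the C1q limit passed the quality conditions and are cells, dendritic cells possibly among them, so they do not measure free RNA. There it was found in 0.518%, 1.96% and 6.99% after thinning and 4.15%, 5.59% and 22.0% before. Median depths were 4333, 2948 and 12345 UMIs in other C1q-gated cells and 3252, 2081 and 8090 UMIs below the limit. Mmp13, at 1.51%, 1.94% and 2.77% after thinning (5.51%, 5.31% and 15.5% before), compared with 0, 0.140% and 2.65% below the limit (0, 0.420% and 8.22% before). The 0 of 386 CD barcodes allows a share of up to 0.777%, taken as 3 counts of that total. Tmem119, at 1.16%, 1.79% and 0.559% after thinning (3.86%, 4.65% and 5.59% before), compared with 1.04%, 0 and 0.284% (3.11%, 0.699% and 2.55% before). The 0 of 715 HFD barcodes allows up to 0.420% by the same limit. In gated cells the thinned shares were 23.8%, 37.2% and 33.3% for Cadm1, 23.8%, 27.9% and 20.3% for Mmp13, and 14.3%, 25.6% and 5.07% for Tmem119, against 92.9%, 88.4% and 99.3%, 66.7%, 60.5% and 72.5%, and 50%, 67.4% and 42.8% before.

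The share of the class in each library depended on depth. As deposited, gated cells were 1.83% (95% Clopper-Pearson interval 1.32 to 2.47) of C1q-gated cells in CD, 2.15% (1.56 to 2.88) in HFD and 3.71% (3.13 to 4.37) in WD. Gated cells had a median of 3466 UMIs in CD, 3185 in HFD and 10086.5 in WD. When every barcode was thinned to 1000 UMIs before gating, the shares were 0.174% (0.0475 to 0.445) in CD, 0.645% (0.344 to 1.10) in HFD and 0.355% (0.189 to 0.606) in WD. At 2000 UMIs they were 0.693%, 1.504% and 1.22%. WD had the largest of the 3 shares before thinning and lay between CD and HFD after it at both depths. A gate that needed Mmp13 and Tmem119 together, without the long gene Cadm1, gave 0.305%, 0.599% and 0.565%. The intervals of every pair of libraries overlapped after thinning to 1000 or 2000 UMIs and under the gate without Cadm1. At 1000 UMIs the shares rested on 4 CD, 13 HFD and 13 WD cells from 1 random draw. The negative condition removed more of the WD cells: without it the shares were 3.31%, 3.10% and 14.0%.

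**Figure D1:**
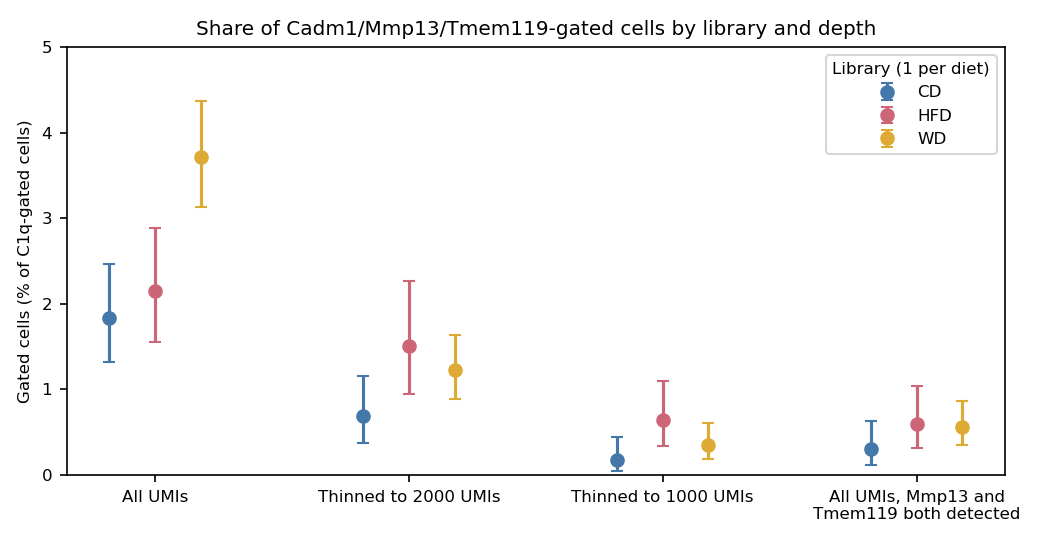
Share of gated cells among C1q-gated cells of each library (percent, vertical axis) with all UMIs, after thinning to 2000 and 1000 UMIs, and under the gate on Mmp13 and Tmem119 alone. Points are shares and bars 95% Clopper-Pearson intervals. The WD share of 3.71% as deposited falls to 0.355% when barcodes are thinned to 1000 UMIs. HFD then has the highest of the 3 shares, with intervals that overlap between all libraries.

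General macrophage genes were present in the gated cells of every library. C1q genes were a median of 1.96% of UMIs in CD, 2.35% in HFD and 0.702% in WD gated cells, against 2.17%, 2.24% and 0.803% in other C1q-gated cells. Csf1r, the receptor for the macrophage growth factor CSF1, was at 913, 1170 and 733 CPM in gated cells and 884, 927 and 730 CPM in the others (edgeR adjusted p = 0.911 in the fit described below). Adgre1, which encodes F4/80, was at 479, 592 and 424 CPM against 452, 432 and 379 CPM (edgeR adjusted p = 0.650). Of the 12 genes of the macrophage identity list, 3 rose (Aif1, Cd14 and Cx3cr1) and 2 fell (Itgam and Mrc1), and against matched cells (the other C1q-gated cells that also lacked Ccr2, Timd4 and Lyve1 UMIs) edgeR called 0 higher, with 2 higher at an unadjusted p under 0.05, and 2 lower (Apoe, -0.45, and Mrc1, -0.78). The calls of Aif1 were lost without any 1 of the libraries (0.36 to 0.41), and those of Cd14 without CD (0.23) or HFD (0.30). The list summed to 27667, 25714 and 13292 CPM in gated cells and 27854, 30226 and 16240 CPM in the others. The label names 4 further markers, which were chosen on these cells and are given without a test. Cd72, an inhibitory C-type lectin of B cells and macrophages, was 3.31-fold its level in other C1q-gated cells in CD, 4.31-fold in HFD and 2.75-fold in WD. Scimp, an adaptor that couples Toll-like receptors to Src-family kinases, was 2.86-, 3.51- and 3.28-fold. Fcgr4, an activating Fc receptor for IgG, was 3.53-, 3.44- and 3.12-fold, and Zmynd15, a zinc finger protein, was 8.34-, 4.67- and 2.60-fold. All 4 label markers were therefore higher in the gated cells of every library than in the other C1q-gated cells. The gaps were smaller against matched cells: Scimp was at 177, 243 and 97.4 CPM in gated cells and 114, 109 and 65.6 CPM there, and Zmynd15 at 111, 99.9 and 41.0 CPM against 27.9, 35.6 and 34.9 CPM. Cells just outside the gate, with 2 or more UMIs of only 1 gene, were at 185, 255 and 73.2 CPM of Scimp, which in CD and HFD was as high as in gated cells.

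The label was also checked against markers of the cells it could be taken for. Sall1, the transcription factor that defines microglia, had no UMI in any gated or other C1q-gated cell of the 3 libraries. P2ry12, a purinergic receptor of microglia, was at 20.2, 42.8 and 43.6 CPM in gated cells and 53.7, 53.0 and 60.8 CPM in the others. Of the 9 markers of type 1 dendritic cells, 5 had no UMI in gated cells of CD and 5 in HFD, and 1 in WD. Their summed level was 167, 150 and 251 CPM in gated cells and 216, 248 and 220 CPM in the other C1q-gated cells. Tmem119 in these cells therefore came without Sall1. Cadm1 came without a higher sum of the dendritic cell markers in CD and HFD. In WD the sum was higher in gated cells, and the counting intervals (226 to 277 and 216 to 224 CPM) did not overlap. Of the 4 markers tested in the fit described below, edgeR called 0 higher and 1 lower, a call lost without WD. Their median log2 fold change was 0.22, and 0.27 against matched cells.

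Across the series, the CD and HFD matrices held 737280 barcodes each and the WD matrix 6885, and the software that made them differed (version 3.0.1 for CD and HFD, 7.2.0 for WD). In WD, genes with long introns stood higher against both other libraries, as described with the diets below, so levels of WD are compared here only within that library. Gated cells held 198144 UMIs in CD, 140155 in HFD and 1560643 in WD, and other C1q-gated cells 11191361, 6457821 and 58287596. No gated barcode occurred in more than 1 library. Among all C1q-gated barcodes, CD and HFD shared 10 and CD and WD shared 1. A doublet caller removed 57 CD, 59 HFD and 182 WD barcodes as an alternative, of which 0, 1 and 1 were gated.

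To ask what else set these cells apart, UMIs were summed over gated and over other C1q-gated cells of each library, and the 6 sums were compared with edgeR's quasi-likelihood test with the library as a block. The 3 libraries served as replicates although their diets differed. The spread of the gated-to-other ratio over these libraries was estimated mostly from all genes together (median prior degrees of freedom 106.6). A p-value therefore rests little on the spread of its own gene, and it does not cover the spread between cells. Of 10217 genes tested, 264 (2.58%) were higher and 434 (4.25%) lower in gated cells at a Benjamini-Hochberg adjusted p under 0.05. The other C1q-gated cells include those with Ccr2, Timd4 or Lyve1 transcripts, which the gate excluded from the class. The comparison was therefore repeated against matched cells, the 1785 other C1q-gated cells that also lacked UMIs of Ccr2, Timd4 and Lyve1, with a median of 2986.5 UMIs in CD, 2288.5 in HFD and 8537 in WD. Against these, 21 of 8864 genes (0.237%) were higher and 46 (0.519%) lower. All 21 were among the 264, and 45 of the 46 among the 434. As a further setting, the gated cell with the most UMIs of a gene was left out for that gene in each library. This lowers every gated sum, and 59 genes were then higher and 441 lower. DESeq2 called 68 higher and 98 lower. With edgeR, 66 and 128 were called when cells were gated on a random portion of their UMIs and compared on the rest. Only 18 CD, 18 HFD and 96 WD cells were then gated, and gated cells of the main fit that missed this gate counted among the other cells. Fewer cells and this mixing can lower the counts too. The count of genes higher fell from 264 to 163 without the HFD library and to 108 without WD, and the count of genes lower moved from 434 to 691 without CD and to 143 without WD.

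Cd207, which encodes langerin, a C-type lectin known from Langerhans cells and some dendritic cells and macrophages, was among the genes with the largest fold. It was at 792 CPM (95% exact Poisson interval 673 to 926) in CD gated cells, 407 (308 to 527) in HFD and 267 (242 to 293) in WD, against 40.5, 29.6 and 15.7 CPM in other C1q-gated cells and 81.1, 47.3 and 22.5 CPM in matched cells. Gated cells were above both comparison groups in each library. The fitted log2 fold change was 4.04 (SE 0.16, edgeR adjusted p = 7.41e-44), a 16.4-fold difference, and 3.30 (SE 0.15, edgeR adjusted p = 2.16e-10) or 9.82-fold against matched cells. With the gated cell holding the most Cd207 UMIs left out of each library it was 3.34. Among cells of the negative gate outside the class, those with no UMI of the 3 genes were at 42.6 (CD), 25.8 (HFD) and 15.3 (WD) CPM of Cd207. Those with 1 UMI were at 156, 113 and 48.1 CPM, and those with 2 or more UMIs of 1 gene at 229, 94.4 and 13.1 CPM. All of these lay below the gated cells of the same library.

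Cd207 was carried by few of the gated cells. It was detected in 6 of 42 gated cells in CD, 8 of 43 in HFD and 14 of 138 in WD, and 1 cell held 62 of the 157 UMIs in CD, 29 of 57 in HFD and 122 of 416 in WD. The cells with Cd207 lay mostly among those with Tmem119. Of the 28 such cells, 26 had Cadm1, 23 Tmem119 and 16 Mmp13, while of the 195 gated cells without Cd207, 188 had Cadm1, 86 Tmem119 and 138 Mmp13. In CD, 5 of the 14 cells with Cadm1 and Tmem119 alone held 142 of the UMIs, against 1 of the 21 cells with Cadm1 and Mmp13 alone. In WD, 7 of the 20 cells with all 3 genes held 238 UMIs, and 2 of the 79 cells with Cadm1 and Mmp13 alone held 15. In HFD the cells with Cd207 were spread over all 4 combinations, 2 in each.

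The Cd207-positive gated cells differed from the remaining gated cells in other genes too, given here as a description because the subset was chosen after its values were seen. H2-M2, a nonclassical MHC class I gene, was at 496, 331 and 40.1 CPM in Cd207-positive gated cells of CD, HFD and WD, and at 0, 8.62 and 22.4 CPM in the rest of the gated cells. In WD these intervals overlapped (16.1 to 82.6 and 15.2 to 31.7 CPM), and 1 gated cell without Cd207 held 26 of the 38 H2-M2 UMIs. In HFD 1 cell held 7 of the 9 H2-M2 UMIs. Id3, an inhibitor of basic helix-loop-helix transcription factors, was at 1488, 662 and 498 CPM against 43.3, 51.7 and 34.6 CPM. Itgal, the alpha chain of the integrin LFA-1, was at 248, 41.4 and 183 CPM against 18.5, 8.62 and 15.9 CPM. Both HFD values of Itgal rested on 1 UMI each, with intervals that overlap (1.05 to 231 and 0.218 to 48.0 CPM). Xcr1, which marks type 1 dendritic cells, had 3 UMIs in Cd207-positive gated cells of WD and none in CD or HFD. In WD this was 17.2 CPM (3.54 to 50.2), against 0.498 CPM in other C1q-gated cells without Cd207. Other C1q-gated cells of WD with Cd207 were at 6.66 CPM of Xcr1 (3.64 to 11.2), an interval that overlaps that of the gated cells. Clec9a and Itgae, from the same marker list as Xcr1, had no UMI in Cd207-positive gated cells of any library. Another 165 C1q-gated cells outside the class also held Cd207, 48 in CD, 28 in HFD and 89 in WD, so that Cd207 was not restricted to the class. Id3 in CD was at 918 CPM in those 48 cells and at 48.5 CPM in other C1q-gated cells without Cd207.

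**Figure D2:**
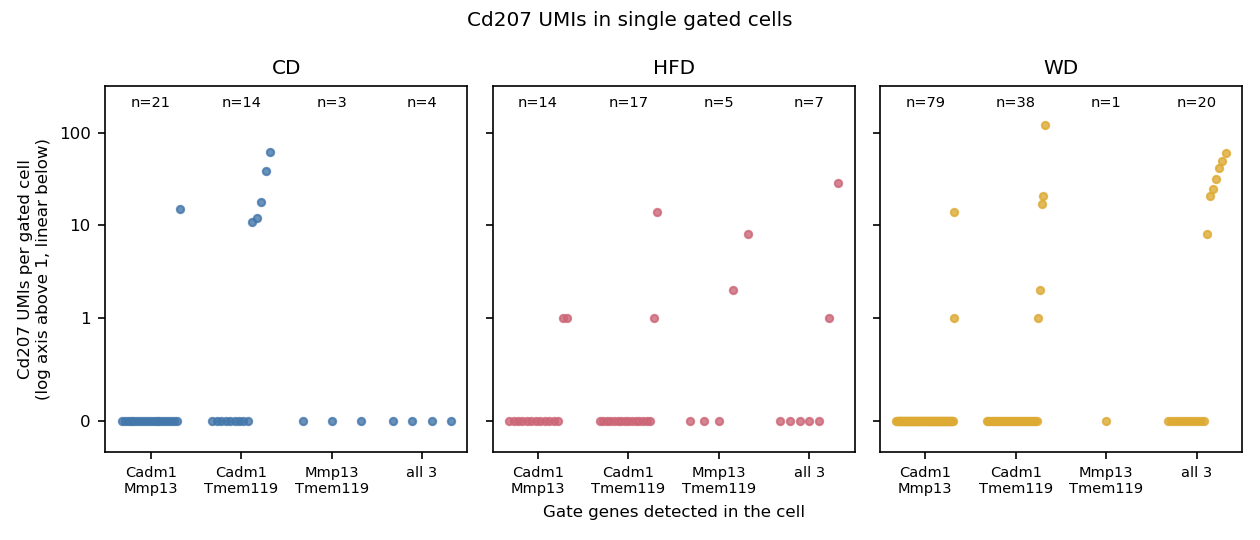
UMIs of Cd207 in each gated cell (vertical axis, logarithmic above 1 and linear below) by the genes of the gate detected in the cell, with 1 panel for each library and 1 point for each cell. Most cells lie at 0, and the 28 cells with Cd207 include single cells of 62 (CD), 29 (HFD) and 122 (WD) UMIs.

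Beyond Cd207, the rule for named genes gave the 15 genes with the largest fold among those called, with at least 20 UMIs over the gated cells and above 1.5-fold in every library. The first was H2-M2, at 90.8, 64.2 and 24.3 CPM in gated cells and 2.50, 4.49 and 1.54 CPM in the others (log2 fold change 4.23, SE 0.36, edgeR adjusted p = 1.04e-18). Only 2 CD, 3 HFD and 4 WD gated cells held it. More evenly spread was Tgfbr1, which encodes the type I receptor of TGF-beta, a cytokine that maintains microglia and Langerhans cells. It was at 131 (85.7 to 192), 314 (228 to 421) and 896 (849 to 944) CPM in gated cells, against 54.6, 66.4 and 221 CPM in others and 82.6, 101 and 456 CPM in matched cells. It was found in 17 CD, 20 HFD and 127 WD gated cells, the highest holding 11.5%, 11.4% and 7.30% of its UMIs. Its log2 fold change was 1.87 (SE 0.16, edgeR adjusted p = 1.40e-17), and 1.03 (SE 0.16, edgeR adjusted p = 0.00313) against matched cells.

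Cxcl14, a chemokine of epithelia and of some tissue macrophages, was at 95.9, 71.3 and 27.6 CPM in gated cells and 14.0, 14.9 and 5.73 CPM in others. Its log2 fold change was 2.38 (SE 0.28, edgeR adjusted p = 3.02e-11) and 1.15 (edgeR adjusted p = 0.0300) against matched cells. F11r, the junctional adhesion molecule JAM-A, was at 55.5, 157 and 69.8 CPM against 23.0, 23.7 and 16.8 CPM, with log2 fold changes of 2.03 and, against matched cells, 1.17. Abi3, an adaptor of actin remodelling, had log2 fold changes of 1.87 and 1.44, and was found in 12 CD, 14 HFD and 37 WD cells. These 3 genes were called against both comparison groups. Rgs1, a regulator of G-protein signalling, rose by 1.82 on the log2 scale (edgeR adjusted p = 1.03e-16), and its value against matched cells was 1.13 (edgeR adjusted p = 0.0673).

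The other named genes had few UMIs. Rnf128, a ubiquitin ligase, and Matn2, a matrix protein, were called against matched cells at log2 fold changes of 2.47 and 1.99, but 9 of the 12 CD UMIs of Rnf128 were in 1 cell. Tspan33, a tetraspanin, rose by 2.32 (1.81 against matched cells, edgeR adjusted p = 0.0742), and Adam22, a catalytically inactive member of the ADAM family, by 1.92 (0.76 against matched cells, edgeR adjusted p = 0.255). Prss30, Rnf128, Col27a1, Galnt3 and Dnase1l3 were no longer called when the highest gated cell of each library was left out for each gene, a setting that lowers every gated sum. Without the WD library 6 of the 15 were no longer called, at log2 fold changes of 2.54 (Adam22), 2.70 (Col27a1), 1.62 (Dnase1l3), 3.70 (Galnt3), 2.65 (Prss30) and 2.07 (Tspan33), and without CD Rnf128 was not (1.13). With these cells left out 10 of the 15 were still called, and 8 of the 15 were called against matched cells. All 13 that had a value without the Cd207-positive cells were called there too.

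**Figure D3:**
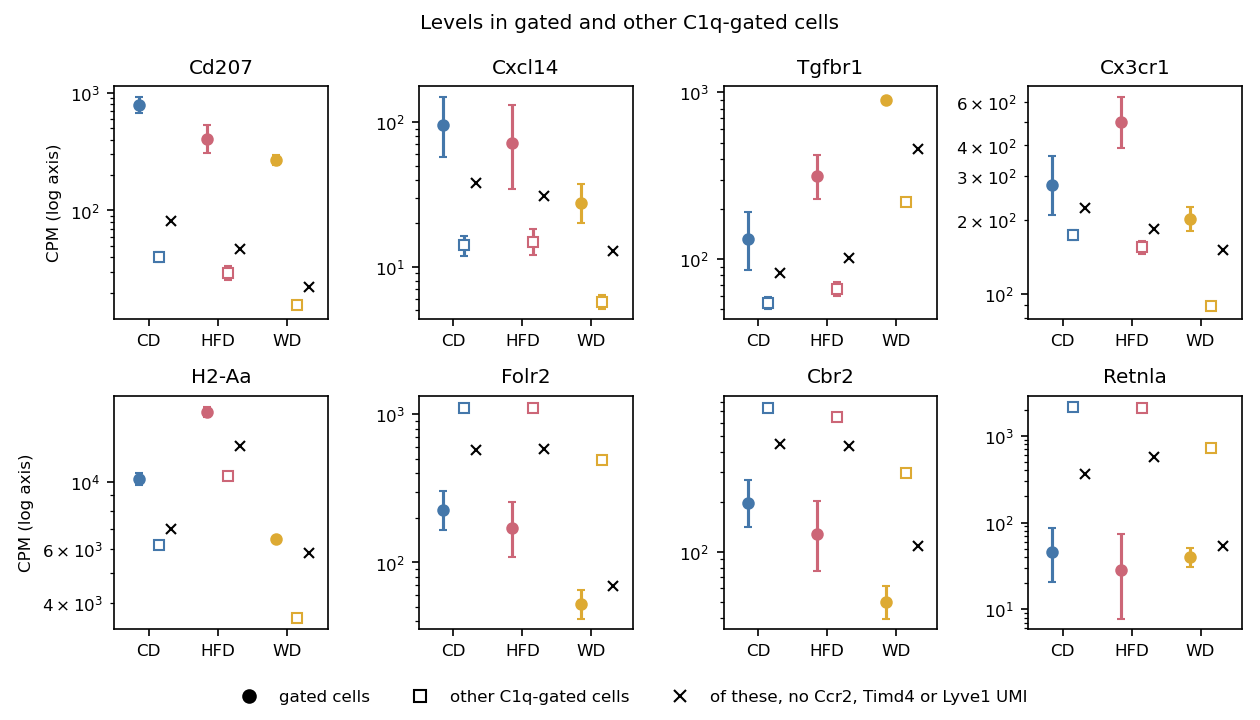
Level in CPM (log axis) of 8 genes in gated cells (filled circles), other C1q-gated cells (open squares) and matched cells (crosses) of each library. Bars on circles and squares are 95% exact Poisson intervals. Cd207, Cxcl14 and Tgfbr1 are higher and Folr2, Cbr2 and Retnla lower in gated cells of all 3 libraries than in other C1q-gated cells.

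Genes of MHC class II presentation rose in the gated cells. Of 11 list genes tested, 8 rose and 1, the peptide-editing subunit gene H2-DMb2, fell, with a median log2 fold change of 0.71 against -0.02 over all genes tested. H2-DMb2 lost its call without any 1 of the libraries (-1.31 without CD, -1.68 without HFD and -3.03 without WD), and H2-DMb1 without HFD (0.44). H2-DMa (0.38 and 0.38) and Ciita (0.65 and 0.61) lost theirs without HFD and without WD, so that 5 of the 8 that rose were called without HFD and 6 without WD. H2-Aa, a class II alpha chain, was at 10184.5, 16953 and 6472 CPM in gated cells and 6168, 10448 and 3559 CPM in others (log2 fold change 0.71, SE 0.11, edgeR adjusted p = 6.00e-07). Cd74, the invariant chain that escorts class II molecules, was at 35419, 58557 and 17169 CPM against 20224, 32208 and 9104 CPM. Against matched cells the list median was 0.35 and 2 of 10 genes were called. Cd74 was then 1.31-fold (log2 0.39, edgeR adjusted p = 0.00873) and H2-Ab1, a class II beta chain, 1.31-fold (edgeR adjusted p = 0.0305), while H2-Aa had 0.31 on the log2 scale (edgeR adjusted p = 0.104). Per cell, the list without Ctss took a median of 8.09% of UMIs in CD, 11.9% in HFD and 3.91% in WD gated cells, against 2.67%, 5.76% and 1.62% in other C1q-gated cells. The lowest gated cells had 0.0702%, 0.185% and 0.0640%, so that not every cell of the class was rich in class II transcripts.

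Resident macrophage genes were lower in the gated cells under both comparisons. All 15 list genes fell against other C1q-gated cells, with a median log2 fold change of -1.89, and 8 of 13 fell against matched cells, with a median of -0.995 against -0.03 over all genes tested. Timd4 and Lyve1 were set to 0 by the gate and are not in the list. The other C1q-gated cells kept cells with Timd4 or Lyve1 transcripts, so a fall of genes expressed with these can follow from the gate. The comparison with matched cells left such cells out. Matched cells had lower median depths than gated cells (2986.5 against 3466 UMIs in CD, 2288.5 against 3185 in HFD and 8537 against 10086.5 in WD). Whether resident cells with uncounted Timd4 or Lyve1 transcripts were among them was not tested. The fit against matched cells was not repeated with a library left out. Folr2, a folate receptor of resident macrophages, was at 227, 171 and 52.5 CPM in gated cells, 1111, 1103 and 495 CPM in others and 574, 581 and 68.9 CPM in matched cells (log2 fold change against matched cells -1.12, edgeR adjusted p = 0.00631). Cbr2, a carbonyl reductase, was at 197, 128 and 49.98 CPM, against 443, 432 and 108 CPM in matched cells (-1.33, edgeR adjusted p = 4.65e-04). In WD the gap to matched cells was small for Folr2 (52.5 against 68.9 CPM) and larger for Cbr2 (49.98 against 108 CPM). F13a1, the A subunit of coagulation factor XIII, fell by 2.56 on the log2 scale, and by 1.41 against matched cells (edgeR adjusted p = 5.49e-05). Cd163, the scavenger receptor for haemoglobin, fell by 1.69 and by 1.01. Cd209g, a C-type lectin, had no UMI in gated cells of any library, which against a floor of 3 UMIs for each library was at least 5.84-fold lower than in others in CD, 6.63-fold in HFD and 1.67-fold in WD. Per cell, the list took a median of 0.666% of UMIs in CD, 0.548% in HFD and 0.294% in WD gated cells, against 1.59%, 1.40% and 0.929% in other C1q-gated cells.

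Retnla, a secreted resistin-like protein of alternatively activated macrophages, was the named gene with the largest fall that held UMIs in every library. It was at 45.4, 28.5 and 39.7 CPM in gated cells and 2156, 2099 and 721 CPM in others (log2 fold change -4.83, SE 0.19, edgeR adjusted p = 7.41e-44). Matched cells were at 367, 571 and 53.9 CPM (log2 fold change -1.89, edgeR adjusted p = 0.0159), so the gap was much smaller against cells that also lacked Ccr2, Timd4 and Lyve1. Slpi, a secreted protease inhibitor, fell by 3.94, and by 2.96 against matched cells (edgeR adjusted p = 0.0328), and was not called without WD (-1.83). Of the other 13 genes named for their fall, 6 had a value against matched cells, of which edgeR called 0, with 5 lower at an unadjusted p under 0.05. Cxcl13, a B cell chemokine, had no UMI in gated cells and was at least 7.36-fold lower in CD, 3.26-fold in HFD and 1.99-fold in WD.

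Genes of the Ccr2-type, monocyte-derived population fell against other C1q-gated cells but, apart from Lyz2, not against matched cells. Of 13 list genes, 9 fell and 3 rose (Il1b, Cd52 and Itgax), with a median log2 fold change of -1.31. Of the 3 that rose, 2 were still called without CD, 1 without HFD and 3 without WD. Il1b, an inflammatory cytokine, was found in 18 CD, 22 HFD and 105 WD gated cells. Its value was 1.10 (edgeR adjusted p = 2.88e-09) without Cd207-positive cells and 0.999 (edgeR adjusted p = 1.93e-07) without the highest gated cell of each library. Against matched cells 1 of 9 fell, Lyz2 (lysozyme, -0.61), 1 rose, Itgax, and the median was 0.03. Fn1, fibronectin, was at -4.14 on the log2 scale against other C1q-gated cells and -0.31 against matched cells. Itgax, which encodes the integrin CD11c, was at 50.5, 42.8 and 23.1 CPM in gated cells and 12.8, 7.90 and 15.7 CPM in others (log2 fold change 1.11, edgeR adjusted p = 0.0176), and 1.72 against matched cells (edgeR adjusted p = 0.0226). Without Cd207-positive cells its value against other C1q-gated cells was 0.91 (edgeR adjusted p = 0.139). It was no longer called without CD (0.67) or without HFD (0.82). Neutrophil genes fell in 6 of 6 and classical monocyte genes in 7 of 8 tested, and the erythroid genes in 4 of 4. Without WD only 1 of the 6 neutrophil genes (Mmp9), 1 of the 7 monocyte genes and 3 of the 4 erythroid genes were still called, with values of -0.55 for S100a8, -0.71 for S100a9, 0.29 for Retnlg, -1.06 for Ly6c2, -1.41 for Chil3 and -1.18 for Hbb-bt. In CD, 1 gated cell held 77 of the 80 S100a8 UMIs and 1 held 35 of the 37 S100a9 UMIs, out of 139 UMIs of the neutrophil list. HFD gated cells had 0 UMIs of both genes. With the highest gated cell of each library left out for each gene, which lowers every gated sum, S100a8 was at -6.05 and S100a9 at -5.69 over the 3 libraries. Of the 9 genes of the Ccr2-type list that fell, 5 were still called without WD. Against matched cells 2 of 5 neutrophil and 2 of 3 erythroid genes fell. Of 3 monocyte genes edgeR called 0 there, with 1 at an unadjusted p under 0.05. The neutrophil list summed to 889, 198 and 1300.4 CPM in other C1q-gated cells and 702, 28.5 and 101 CPM in gated cells, with 5, 9 and 2 of its 11 genes at 0 in the latter, and its part in the remaining differences was not tested. Cardiomyocyte and endothelial genes were called by edgeR in 0 of 11 each, with 1 each lower at an unadjusted p under 0.05. Cytosolic ribosomal protein genes were called in 0 of 20, with 0 at an unadjusted p under 0.05, and DESeq2 called 0 in each of these 3 lists.

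**Figure D4:**
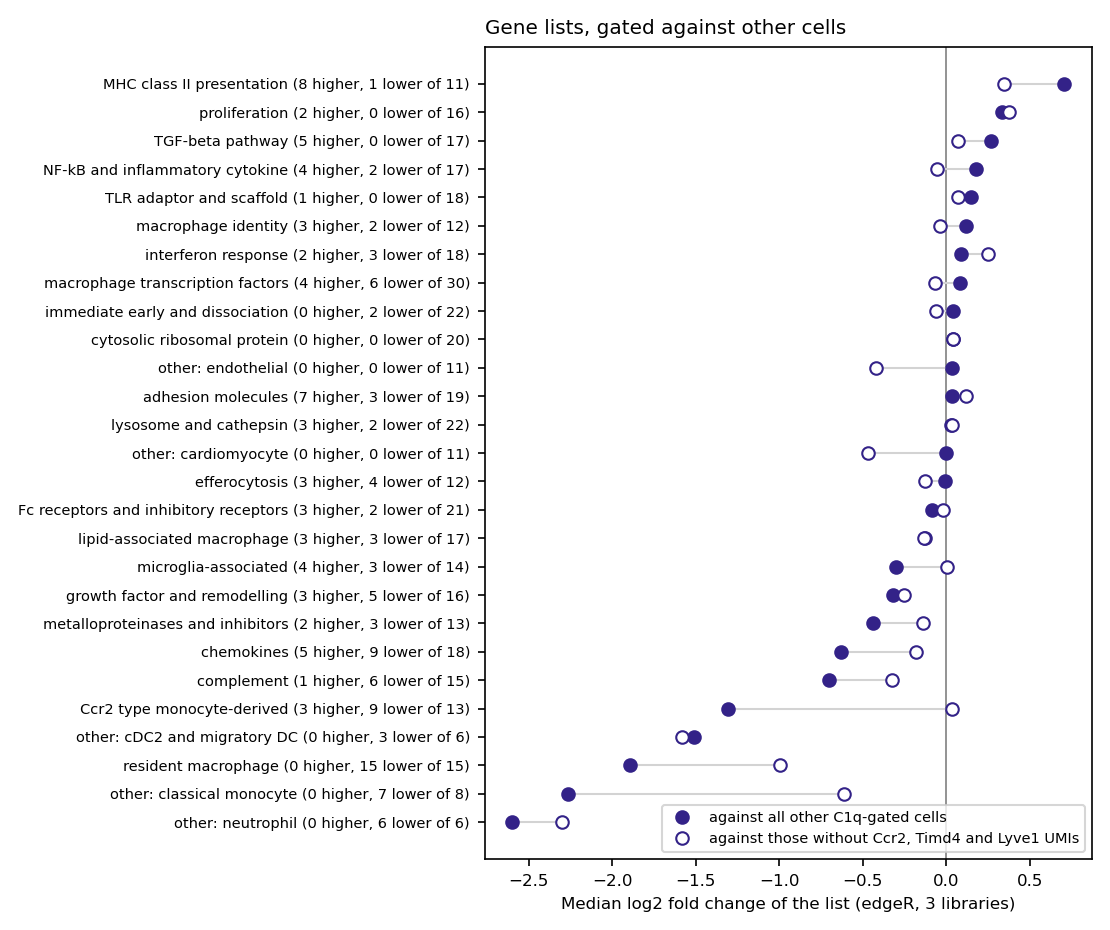
Median log2 fold change (horizontal axis) of each gene list with at least 5 genes tested, for gated against other C1q-gated cells (filled) and against matched cells (open). Counts beside the names are genes called in the first comparison. The resident macrophage list lies below 0 in both comparisons (medians -1.89 and -0.995) and the MHC class II list above it (0.71 and 0.35).

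Genes of the TGF-beta pathway and the microglia-associated list moved for some members only. In the TGF-beta list 5 of 17 rose, with a median log2 fold change of 0.27. These were Tgfbr1, the integrin chains Itgav (0.89) and Itgb5 (0.87), the SMAD corepressor Skil (0.72) and the ligand Tgfb3 (2.43), whose 41 UMIs in gated cells were 40 in WD and 1 in CD. Without WD Itgav was no longer called (0.70). Tgfbr1 alone was called against matched cells. In the microglia-associated list 4 of 14 rose and 3 fell, with a median of -0.30. Olfml3, a secreted olfactomedin-family protein, rose by 1.67. Lag3 rose by 1.47. The genes that fell were Fcrls (-0.59), Csf3r (-1.23) and Selplg (-0.53). None of these 3 was called without WD (-0.50, -0.14 and -0.19), and Lag3 lost its call without any 1 of the libraries (1.26 to 1.67). Of this list too, Tgfbr1 was the only gene called against matched cells, where Olfml3 had 0.85 (edgeR adjusted p = 0.145). Cx3cr1, the fractalkine receptor of monocytes and microglia, was at 278, 499 and 202 CPM in gated cells and 174, 155 and 89.6 CPM in others (log2 fold change 1.14, edgeR adjusted p = 3.47e-09), and 0.64 against matched cells (edgeR adjusted p = 0.145).

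Adhesion molecules, the family of Cadm1, rose for 7 and fell for 3 of 19 tested (5 and 0 of these still called without WD), and 4 of 17 rose against matched cells. The 4 were F11r, the integrin chains Itgal and Itgax, and Cd9, a tetraspanin. Cd9 was at 1030, 499 and 245 CPM in gated cells and 252, 212 and 105 CPM in others (log2 fold change 1.46, edgeR adjusted p = 7.41e-15), and 0.58 against matched cells (edgeR adjusted p = 0.0372), with 60 of 204 CD UMIs in 1 cell. Itgal was called in both comparisons (1.10 and 1.73), but without Cd207-positive cells its value was -0.09, and without CD it was 0.59 and not called. Itgam, which encodes the sort marker CD11b, was at 65.6, 57.1 and 137 CPM against 100.2, 92.8 and 223 CPM and fell by 0.70 (edgeR adjusted p = 0.00571), with -0.09 against matched cells and no call without WD (-0.70).

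Among metalloproteinases and their inhibitors, the family of Mmp13, 2 of 13 rose and 3 fell. Mmp12, macrophage elastase, was at 212, 136 and 308 CPM against 101, 43.8 and 83.0 CPM (log2 fold change 1.57, edgeR adjusted p = 5.31e-13), and 1.49 against matched cells (edgeR adjusted p = 0.0272). A single WD cell held 261 of its 480 UMIs there. Mmp14, a membrane-bound collagenase, rose by 1.48 and had 0.77 against matched cells (edgeR adjusted p = 0.570), and it was not called without WD (1.53). Mmp9, a gelatinase, fell by 3.32 and by 2.33 against matched cells, and it is also in the neutrophil list.

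Chemokine genes moved in both directions. Of 18 tested, 5 rose and 9 fell, and against matched cells 2 of 16 rose (Cxcl14 and Ccl4) and 6 fell. Ccl4, an inflammatory CC chemokine, was at 959, 178 and 2172 CPM in gated cells and 264, 43.4 and 1134 CPM in others (log2 fold change 1.43, edgeR adjusted p = 1.39e-13), and 0.95 against matched cells (edgeR adjusted p = 0.0385). In HFD 22 of its 25 UMIs came from 1 cell. Cxcl16, a membrane-bound chemokine that also takes up oxidised lipoprotein, was at 570, 806 and 436 CPM against 263, 312 and 207 CPM (log2 fold change 1.13), and 0.49 against matched cells (edgeR adjusted p = 0.0924). Ccl24, an eosinophil chemokine, was at 35.3, 35.7 and 21.8 CPM against 432, 456 and 193 CPM and fell by 3.37, and by 1.98 against matched cells (edgeR adjusted p = 5.06e-04). Ccl6 and Ccl9, CC chemokines of myeloid cells, fell by 1.91 and 1.79, and each by 0.85 against matched cells. Pf4, platelet factor 4, fell by 1.07 and by 0.69.

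Of 30 macrophage transcription factors tested, 4 rose and 6 fell, and Id3 alone was called against matched cells. Id3 was at 308, 157 and 86.5 CPM in gated cells and 67.6, 35.5 and 39.6 CPM in others (log2 fold change 1.64, edgeR adjusted p = 7.93e-13). Without Cd207-positive cells it was at 0.14 (edgeR adjusted p = 0.937). Runx3, a partner of SMAD proteins, was at 151, 193 and 204 CPM against 31.9, 47.8 and 79.4 CPM (log2 fold change 1.67, edgeR adjusted p = 5.20e-14), and 0.73 against matched cells (edgeR adjusted p = 0.0991). Irf8 rose by 0.66. Maf, a factor of resident macrophages, was at 212, 221 and 575 CPM against 383, 392 and 845 CPM and fell by 0.74, and Zeb2 fell by 0.46. Irf8 was not called without HFD (0.49), nor Zeb2 without WD (-0.47), where 1 of the 6 that fell was still called. Spi1, which encodes the general macrophage factor PU.1, had a log2 value of 0.20 (edgeR adjusted p = 0.583).

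In further lists, complement genes rose for 1 and fell for 6 of 15, among them Cfp (-2.43), properdin of the alternative pathway, which fell against matched cells too. The scavenging genes of efferocytosis rose for 3 and fell for 4 of 12: Axl, a receptor for apoptotic cells, rose by 0.91, and its ligand Gas6 fell by 1.67. Growth factor and remodelling genes rose for 3 and fell for 5 of 16, and Bmp2 fell by 2.19 and by 2.26 against matched cells but was not called without WD (-0.70), where 1 of the 3 that rose and 1 of the 5 that fell were still called. In the interferon list 2 of 18 rose, Ifit2 and Ifit3, and 3 fell, Ifi204, Ifi27l2a and Ifitm3. The list summed to 3987, 3539 and 2270 CPM in gated cells and 6321, 5298 and 3494 CPM in the others. In gated cells 42 of the 45 CD UMIs and 38 of the 57 WD UMIs of Ifit3 were in 1 cell each. Immediate early genes, which dissociation of tissue can induce, fell for 2 of 22. NF-kB and inflammatory cytokine genes rose for 4 and fell for 2 of 17, of which 1 and 0 were still called without WD. Against matched cells edgeR called 0 of 15 of them, with 2 higher and 2 lower at an unadjusted p under 0.05. Proliferation genes were called in 2 of 16, Ccnb1 and Ube2c, neither of them without the highest cell of each library or without CD (0.98 and 0.36). Ifit3 was not called without CD (0.25), nor Ifit2 without CD (0.83) or WD (0.89). Cells with at least 5 UMIs of proliferation genes were 2.38% of gated cells in CD (95% exact interval 0.0603 to 12.6), 6.98% in HFD (1.46 to 19.1) and 14.5% in WD (9.08 to 21.5), against 9.51%, 5.26% and 20.7% of the others. This share counts UMIs in each cell and so depends on depth. The summed level of the proliferation list was higher in gated cells of each library, at 999, 792 and 525 CPM against 700, 525 and 440 CPM. Its median log2 fold change was 0.33, and 0.38 against matched cells.

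Between HFD and CD, both processed with the same software version, gated cells had 1486 genes with at least 30 UMIs over both libraries. Of these 28 (1.88%) were 2-fold or more higher and 125 (8.41%) lower in HFD. No test is possible with 1 library each, and the differences could be of the mice, the diets or the preparations, which cannot be told apart. MHC class II genes were higher in HFD in gated and in other C1q-gated cells alike. H2-Aa was 1.66-fold (95% counting interval 1.57 to 1.77) in gated and 1.69-fold in other cells, Cd74 was 1.65-fold and 1.59-fold, and H2-DMb1 was 2.04-fold and 1.74-fold. Ciita, the master coactivator of class II genes, had 24 UMIs in HFD and 6 in CD gated cells, a ratio of 5.66 (2.25 to 16.9), with 2.07 in other cells. Tgfbr1 was 2.39-fold (1.44 to 4.05) in gated and 1.22-fold in other cells. Cx3cr1 was 1.80-fold (1.25 to 2.61) in gated and 0.889-fold in other cells. Tpst2, a tyrosylprotein sulfotransferase, was 3.39-fold (1.56 to 7.95) and 1.16-fold. Differences between these pairs of ratios were not tested.

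Immediate early genes were lower in HFD. Of 18 with enough UMIs, 11 were at least 2-fold lower, with a median log2 ratio of -1.34 in gated and -1.28 in other C1q-gated cells. Fos, an AP-1 subunit, was at 785 CPM in HFD and 2110 in CD gated cells, and Dusp1, a stress-induced phosphatase, at 557 and 1741 CPM. Ppp1r15a, a stress-response phosphatase subunit, had 56 UMIs in 18 CD gated cells and 0 in HFD. These genes can be induced while tissue is taken apart, and the part of that in the difference was not tested. Lipid-associated macrophage genes were lower for 10 of 16, with a median of -1.21 in gated and -0.53 in other cells. Trem2, a lipid receptor, was 0.432-fold (0.267 to 0.678) and 0.713-fold. Several of the largest falls rested on single CD cells: Spp1 (osteopontin) had 239 UMIs in CD and 5 in HFD, 157 of them in 1 cell, and all 39 CD UMIs of Gpnmb were in 1 cell. For Ccl8, Lyz1, S100a8 and S100a9, 1 CD cell held 93.0% to 96.2% of the CD UMIs. Ccl3, an inflammatory CC chemokine, had 83 UMIs in 20 CD gated cells and 1 in HFD, with 0.0753-fold in other cells. Fabp4, a fatty acid carrier, was 3.46-fold in HFD, with 27 of its 44 HFD UMIs in 1 cell.

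Against CD, WD gated cells had 2601 of 6340 genes (41.0%) 2-fold or more higher and 1181 (18.6%) lower, and against HFD 2688 of 6208 (43.3%) higher and 967 (15.6%) lower. These ratios moved with intron length. With genes in quartiles of intronic length, the median log2 ratio of WD to CD was -0.88, -0.31, 0.72 and 2.07 from the shortest to the longest, while that of HFD to CD was between -0.12 and -0.06. Diet, software and library preparation cannot be told apart in WD, and its levels are not read as an effect of diet. The contrast within WD used cells of the same library, and the call counts without WD are given with that contrast above.

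**Figure D5:**
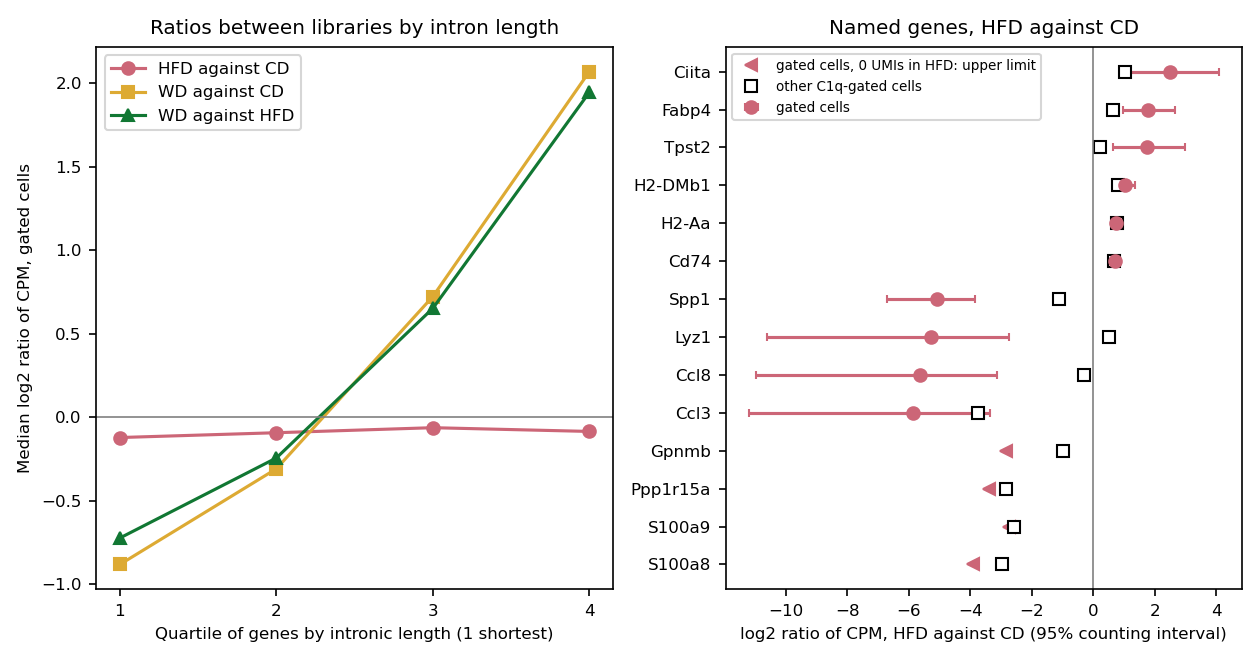
Left, median log2 ratio between libraries in gated cells by quartile of intronic length, for the 3 pairs of libraries, which for WD against CD runs from -0.88 to 2.07. Right, log2 ratio of HFD to CD for the named genes in gated cells (points with 95% counting intervals, or an arrow at the upper limit where HFD has 0 UMIs) and other C1q-gated cells (open squares).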

How the data were processed

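Single-cell 3' RNA sequencing (10x Genomics v2 reagents, per the labels) was made from 3 libraries, CD, HFD and WD. The CD and HFD files list the same 737280 barcodes, but only 92 of the 6885 WD barcodes are in that list. Whether WD was made with the same reagents as CD and HFD was therefore not established here. The deposited matrices hold whole-number UMI counts per gene and barcode with no normalization, written by 10x software of version 3.0.1 (CD, HFD) or 7.2.0 (WD), per the file headers. Build GRCm38 and Seurat are named per the submitters' processing notes, with no word on the counting of introns. The files hold 17464149, 16630481 and 79269380 UMIs. Genes were joined by Ensembl ID, which left 30406 (597 with differing symbols), and gene models are GENCODE vM21.

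Groups came from the labels. The class members and the gene lists were chosen with earlier results of these data known, and part of the lists came from an earlier analysis of these files. UMIs were summed over cells of each kind and library, scaled to CPM, and compared with edgeR 4.0.16 (R 4.3.3, quasi-likelihood, library as a block, TMM scaling, filter on low counts, Benjamini-Hochberg adjustment). Single-library CPM carry exact Poisson, ratios exact conditional and shares exact Clopper-Pearson intervals at 95%, which cover counting error only. Named genes were the 15 with the largest and the 15 with the smallest fold change among genes called, with 20 UMIs observed (higher) or expected (lower) in gated cells and 1.5-fold in each library, and between diets the 8 with the largest and smallest ratios at 30 UMIs or more whose interval excluded 1.5-fold, together with list members. Genes of the gate and the label were not tested. Scrublet scores (scanpy 1.11.5) took out the highest barcodes at 0.8% per 1000 as an alternative. Thinning drew UMIs without replacement with a fixed seed. The edgeR script was tested on simulated data. Python 3.11.15, numpy 2.4.6, scipy 1.17.1 and, as an alternative, DESeq2 1.42.0 were used. Leaving out Cd207-positive cells and the highest cell of each library for each gene were chosen after seeing the data.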

Additional observations from a re-analysis of the deposited data

Results flagged for a closer look

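Spp1, which encodes osteopontin, differed in direction between libraries: gated cells were at 6.40 times the level of other C1q-gated cells in CD and 2.42 times in WD, but at 0.409 times in HFD. The difference between libraries was not tested. In CD 157 and 80 of the 239 Spp1 UMIs were in 2 cells. The HFD gated cells held 5 Spp1 UMIs in 3 cells, and in WD 1 cell held 30 of the 65.

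In WD, 21 barcodes below the C1q limit met every other condition of the gate and were not among the gated cells. CD and HFD had 0 such barcodes each.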

How the results depend on the processing

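The share of gated cells moved with depth and gate. In CD, HFD and WD it was 0.174%, 0.645% and 0.355% after thinning to 1000 UMIs, 0.693%, 1.504% and 1.22% at 2000 UMIs, 1.22%, 1.30% and 3.09% with at least 3 UMIs of the 3 genes, 0.305%, 0.599% and 0.565% with Mmp13 and Tmem119 alone, and 3.31%, 3.10% and 14.0% without the negative condition. With C1q genes at 1% or more the WD share was 2.97%. The counts of genes higher and lower, 264 and 434, were 21 and 46 against matched cells, 68 and 98 with DESeq2, and 50 and 177 after thinning to 1000 UMIs. They were 66 and 128 when cells were gated on a random portion of their UMIs and summed over the rest, with 18 CD, 18 HFD and 96 WD cells gated. They were 59 and 441 without the highest gated cell of each library for each gene, which lowers every gated sum. Leaving out 1 library gave 108 to 235 genes higher and 143 to 691 lower. No paired analysis was possible because each diet has 1 library, so that no replicate number pairs samples across diets. Gated and other cells of 1 library were paired in the test through the library as a block, and without it edgeR called 0 genes higher and 0 lower, with 216 at an unadjusted p under 0.05. The cause was not tested.

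Some single genes changed direction (log2 values). Against matched cells Cd14 was at -0.11 and Napsa at 0.45, and Cd14 was at -0.033 with divided UMIs. With 1 library left out, Cd300lf ranged from -2.27 to 0.77 (without WD), Retnlg from -5.06 to 0.29 (without WD) and Gpnmb from -2.34 (without CD) to 1.85, and after thinning Cd79b was at -0.53. Without the highest cell of each library, Ccnb1 was at -0.77, Cxcl2 at -0.32, Ifit2 at -0.93, Ifit3 at -1.19, Ube2c at -1.24 and Gpnmb at -9.87. Gpnmb was also at -0.93 with DESeq2 and -0.90 with cells weighted equally, and Ifit2 at -0.34 with at least 3 UMIs and -0.67 with equal weights. Itgal was at -0.094 without Cd207-positive cells. The genes past the fold between HFD and CD, 153 in all, were 96 with at least 3 UMIs of the 3 genes, 27 after thinning, 399 at 1.5-fold and 27 at a minimum of 100 UMIs. Fabp4 was then at -0.063 with at least 3 UMIs. WD against CD gave 573 genes after thinning and 1843 at 100 UMIs, and WD against HFD 563 and 1729.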
